A study of Mus musculus with 13 samples.

Results

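The genes described here, most of which encode proteins of the spliceosome or the SR splicing factors that guide it, were measured by polyA RNA-seq in mouse retina. They were chosen by name: the nuclear count table was searched for symbols of the Prpf, Snrp, Snrnp, Srsf, Sf3a, Sf3b and Lsm families and for Rnpc3, and a gene was kept if at least 10 reads were counted in at least 4 of the 13 libraries. Of 68 matching symbols, 66 remained after 1 pseudogene and 1 further gene were left out by name, and 65 of these passed, of 29700 nuclear genes in all. Snrpf, the Sm ring gene for SmF, had 0 to 12 reads a library and was not kept. Kept by their names were also Lsm10 and Lsm11 of the U7 particle, which processes histone mRNA, and Snrpert, an annotated processed pseudogene. The retinas came from 4 wild-type C57BL/6J mice at 2 months of age (WT), from 4 Rpe65-/- mice on base diet (vehicle), and from 5 Rpe65-/- mice given tamsulosin, metoprolol and bromocriptine in the diet (TMB) from postnatal day 22. Both Rpe65-/- groups were sampled at postnatal day 64, and 1 retina per mouse was sequenced. Rpe65 encodes the retinoid isomerase of the pigment epithelium, a layer behind the neural retina. WT mice ate the base diet too, and no WT mice on TMB were in the comparison. The series' design text counts 3 WT mice, whereas the labels and the count table hold 4, all of which were used. The deposited list of samples leaves out WT M1 and gives the strain of vehicle F1 as C57BL/6J beside its Rpe65-/- group; in Rpe65 reads vehicle F1 lay with the other Rpe65-/- libraries.

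The spliceosome removes introns from pre-mRNA. Its small nuclear ribonucleoproteins (snRNPs) U1, U2, U4, U5 and U6 each carry a short RNA, held by a ring of Sm proteins or, for U6, of LSm proteins. U1 and U2 mark the start and the branch point of an intron, the U4/U6.U5 tri-snRNP then joins, and the helicase Snrnp200 and the scaffold Prpf8 bring about the catalytic form. A minor spliceosome with U11 and U12 removes a rare class of introns. SR proteins, with their arginine- and serine-rich tails, bind exons and recruit these particles. In human, mutations in PRPF3, PRPF4, PRPF6, PRPF8, PRPF31 and SNRNP200 cause dominant retinitis pigmentosa, although the proteins are made in every cell.

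Nuclear reads numbered 13512155 to 16449989 per library, and the members took 0.647% to 0.729% of them. Rpe65 itself had 72 to 226 reads in the WT libraries and 0 to 8 in the Rpe65-/- libraries. The library labelled vehicle F2 went against its sex label, with 0.0659 CPM (here scaled to the nuclear reads of the library) of Xist and 92.2 CPM of Eif2s3y. The letter F or M in a library name is its sex label. By these genes WT F3 and F4, vehicle F1, and TMB F1, F3 and F4 read as female and all other libraries as male. The sexes were thus not balanced between vehicle and TMB, and no fit had a term for sex. A second library, WT F4, stood apart from the other WT libraries. The GC-rich quintile of genes lay 0.33 to 0.49 below its 13-library mean on the log2 scale in WT M1, WT M2 and WT F3 but 0.28 above it in WT F4, against 0.12 to 0.33 above it in vehicle libraries and -0.19 to 0.13 in TMB libraries. Mitochondrial reads were 2.84% of the total in WT F4, 4.28% to 6.02% in the other WT libraries, 2.69% to 3.70% in vehicle and 3.37% to 4.08% in TMB. For 58 of the 65 members, WT F4 was nearer to the vehicle mean than to the mean of the other WT libraries, against 72.2% of all tested genes. Values that use WT are given with all libraries and, for the counts of calls and the members that were called, also without WT F4. The 5 rod markers summed to 50979 to 65230 CPM in WT, 47659 to 55710 CPM in vehicle and 46098 to 51574 CPM in TMB. The 4 cone markers (Opn1sw, Gnat2, Pde6h, Arr3) summed to 894 to 1016 CPM in WT, 86.5 to 119.8 CPM in vehicle and 72.6 to 107.9 CPM in TMB; the 4 pigment epithelium markers summed to 40.8 to 81.8, 78.8 to 389.8 and 104.4 to 132.6 CPM. The 3 markers of Mueller glia summed to 2370 to 2659, 2801 to 3838 and 2679 to 3013 CPM, a sum higher in every library of both Rpe65-/- groups than in WT. Singly, Slc1a3 overlapped between WT (201 to 272 CPM) and both Rpe65-/- groups (228 to 298 and 252 to 278 CPM). Rlbp1 and Glul overlapped between WT and TMB but not between WT and vehicle. The 3 markers of microglia summed to 8.07 to 10.2, 10.01 to 17.3 and 9.02 to 15.9 CPM. The part of any of these cell types in the results below was not tested. In such bulk tissue, fewer cells of a type and less RNA per cell cannot be told apart.

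The CPM of members below are scaled to library sizes adjusted by TMM, whose factors were 0.948 to 0.976 in WT, 0.993 to 1.04 in vehicle and 1.001 to 1.04 in TMB. Per kilobase of the longest transcript, members ranged over all libraries from 3.37 CPM per kb (Lsm10, of the U7 particle that processes histone mRNA) to 149 CPM per kb (Srsf5, an SR protein). The SR proteins had the highest class median, 66.7 CPM per kb, against 31.95 for the Sm ring, 25.0 for the U5 and tri-snRNP proteins, 22.6 for U2 proteins, 18.04 for U1 proteins, 8.34 for the LSm ring and 8.07 for minor spliceosome proteins. Within the SR class the level per kb ran from 5.38 CPM per kb for Srsf12 to 149 for Srsf5, with Srsf2 at 103 and Srsf1 at 81.9. Snrnp70, the protein that grips U1 RNA, led the U1 class at 114 CPM per kb, and Snrpc was lowest at 3.91. Sf3b2 (88.4 CPM per kb) and Sf3b5 (5.41) bounded the U2 class, Prpf8 (66.5) and Prpf4 (7.04) the U5 and tri-snRNP class, and Rnpc3 (29.1) and Snrnp35 (5.35) the minor class. In the Sm ring Snrpb was highest at 50.3 CPM per kb and Snrpg lowest at 11.3, and in the LSm ring Lsm4 was highest at 45.9 and Lsm3 lowest at 3.76. These levels rest on annotated lengths and were not tested between genes. Where another annotated gene holds much of a member's sequence, its counts are uncertain: the share of 50-base windows found in another gene was 51.2% for Sf3b4, 47.3% for Srsf4, 35.2% for Srsf2, and at most 26.2% for the other members apart from the pseudogene Snrpert (55.7%).

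**Figure D1:**
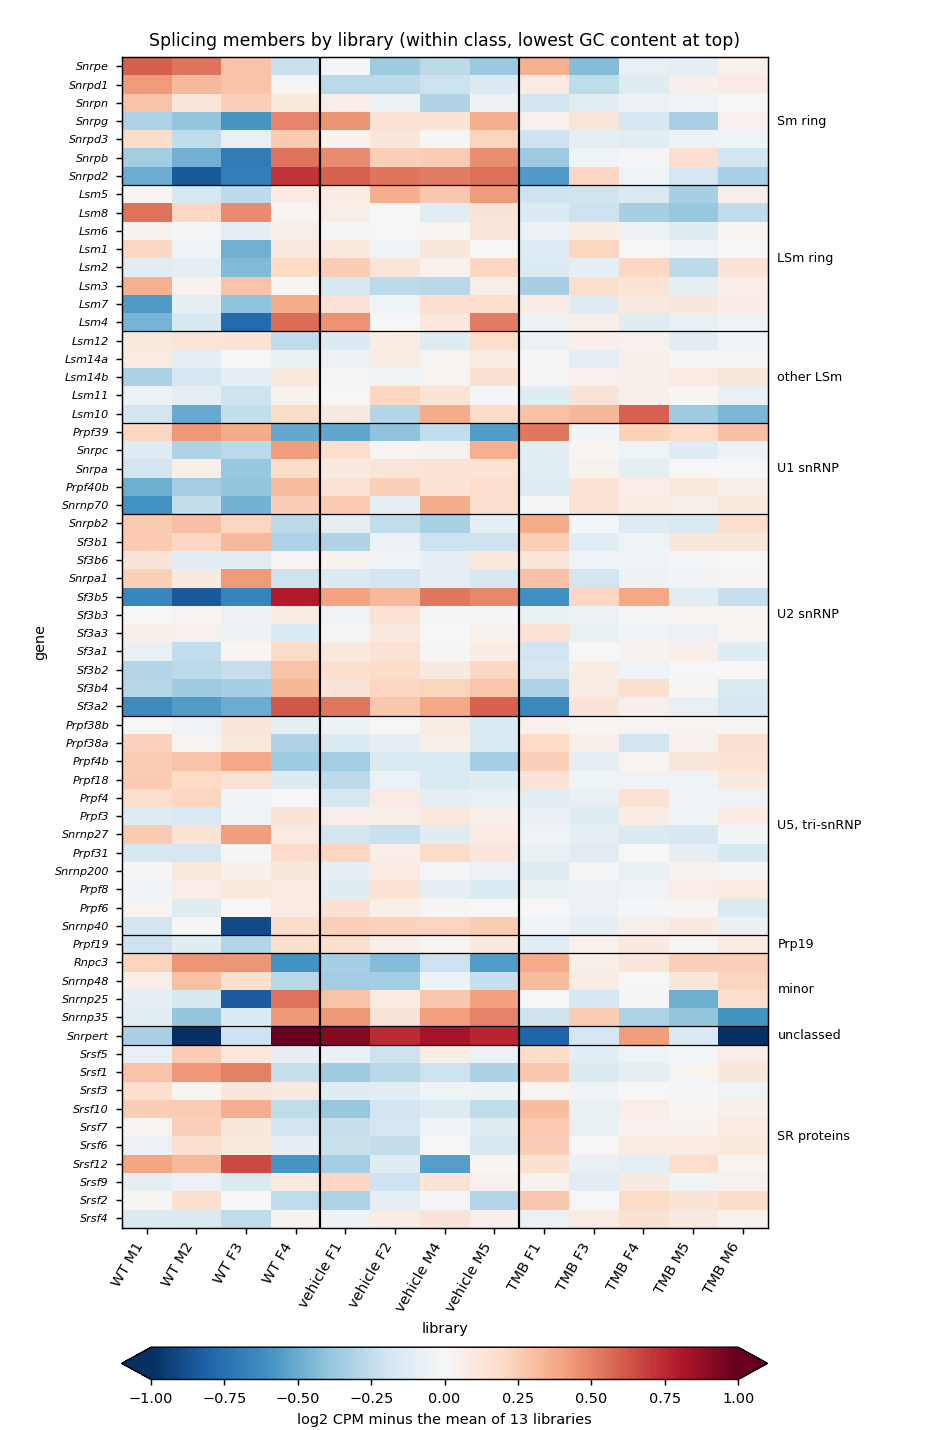
Heat map of 64 of the 65 members (rows, grouped by complex and ordered by GC content within each) in the 13 libraries (columns); colour is log2 CPM minus the mean of the 13 libraries. Of the 65 genes, 58 are nearer to the vehicle mean than to the mean of the other WT libraries in WT F4.

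In vehicle-treated Rpe65-/- retina, 14 members fell and 3 rose relative to WT. Among those that fell were the SR proteins Srsf1, Srsf3 and Srsf10, the U1, U2, U5 and minor spliceosome factors Prpf39, Sf3b1, Prpf4b, Prpf18, Snrnp27, Rnpc3 and Snrnp48, and the Sm genes Snrpd1, Snrpe and Snrpn. Those that rose were Snrpd2, Snrnp70 and Prpf40b. Calls are at an adjusted p under 0.05 by the quasi-likelihood test of edgeR, adjusted over all 16782 genes tested; all 65 members passed the filter on low counts. Of all genes, 15.7% rose and 18.3% fell in this comparison, so the share of members that fell was near the background and the share that rose was below it. The median log2 change was 0.047 over the members and 0.017 over all genes. Without WT F4 the count was 23 higher and 22 lower, against 28.5% and 27.1% of 17092 genes, and all 17 members called with the full set were among these 45. Leaving out WT M1, WT M2 or WT F3 left 4, 6 and 3 calls, all of lower levels, and leaving out vehicle F1, M4 or M5 or TMB M6 left 7, 10, 6 and 11, all lower. Without vehicle F2 there were 12 calls, 1 higher (Snrnp70) and 11 lower, all among the 17. The 48 members that were not called changed by -0.50 (Srsf12) to 0.73 (Snrpert).

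The changes varied with the base composition of the transcripts. The 14 members that fell had GC contents of 33.1% to 47.6%, with a median of 41.2%, and the 3 that rose had 52.3% to 57.3%; the median over all tested genes with a reference transcript was 49.2%. Across the 65 members the log2 change correlated with GC content at r = 0.65 and with log2 transcript length at r = -0.37, a description only, since all members share the same libraries; over 16711 genes the corresponding r was 0.46 and -0.11. After a GC trend was fitted and removed in every library, 9 members were called, 4 higher and 5 lower, against 7.79% and 11.6% of 16711 genes, and 3 of the 17 calls remained, Srsf1 and Snrnp27 among them. When WT F4 was left out as well, 18 members were higher and 7 lower, against 12.6% and 15.4% of genes. GC content moved with the result in the libraries as well as in the genes, and its part in the result was not tested.

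**Figure D2:**
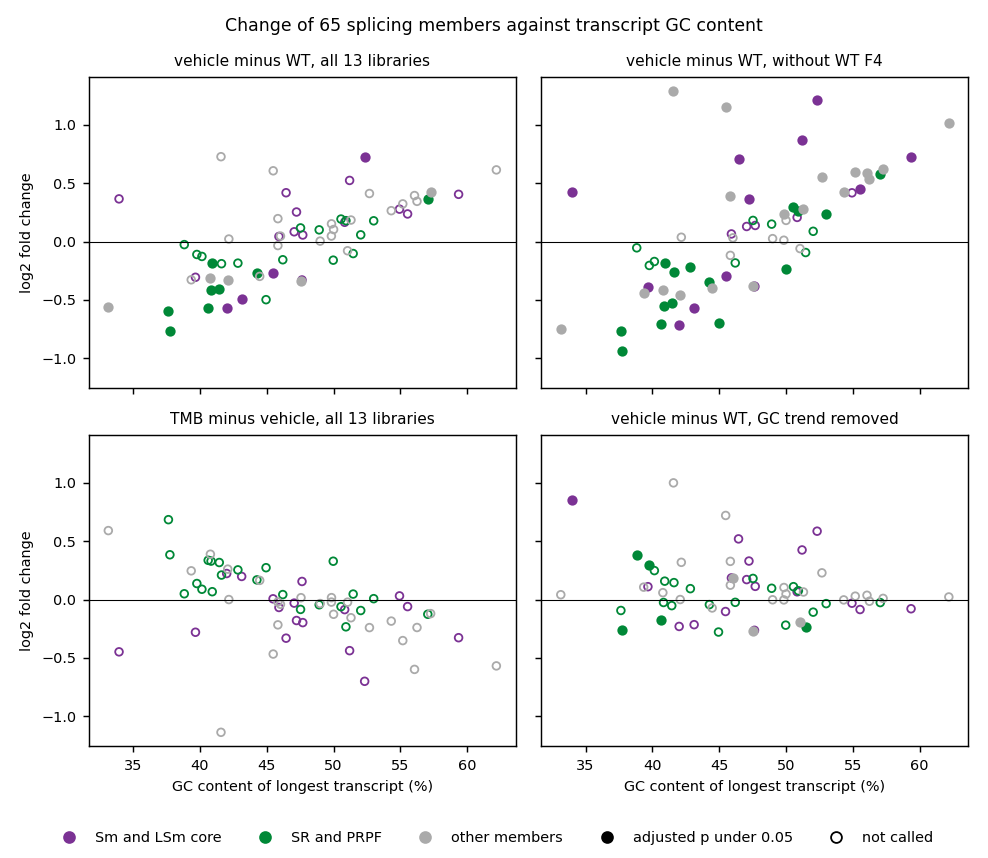
Log2 fold change of each member (purple, Sm and LSm core; green, SR and PRPF; grey, others) against the GC content of its longest transcript, in 4 panels (vehicle minus WT with all libraries, without WT F4, and with the GC trend removed, and TMB minus vehicle); filled points have an adjusted p under 0.05. In vehicle minus WT, the changes go up with GC content (r = 0.65, and 0.64 without WT F4), they go down in TMB minus vehicle (r = -0.48), and once the GC trend is removed r is -0.21.

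Snrnp27, a protein of the tri-snRNP that fell, and Snrpd2, a protein of the Sm ring that rose, are shown as sequences because their coding regions differ in base composition. The middle 150 bases of each coding sequence are given (GENCODE M21 on GRCm38, plus strand of the mRNA), with G and C in capitals. Snrnp27 lies at chr6:86675151-86684522 on the minus strand and Snrpd2 at chr7:19149722-19153542 on the plus strand. The stretches cover coding positions 214 to 363 of 576 in Snrnp27 and 103 to 252 of 357 in Snrpd2.
Snrnp27: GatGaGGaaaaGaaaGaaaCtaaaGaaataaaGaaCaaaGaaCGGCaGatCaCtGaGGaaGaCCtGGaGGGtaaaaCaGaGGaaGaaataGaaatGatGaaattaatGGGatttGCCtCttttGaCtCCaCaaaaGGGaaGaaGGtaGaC
Snrpd2: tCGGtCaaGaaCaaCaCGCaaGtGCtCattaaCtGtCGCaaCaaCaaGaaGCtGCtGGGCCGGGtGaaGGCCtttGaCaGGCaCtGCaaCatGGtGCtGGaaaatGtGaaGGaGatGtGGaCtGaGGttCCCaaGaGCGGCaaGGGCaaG
G and C made up 38% of the first stretch and 53.3% of the second, and 48.8% and 54.6% of the whole coding sequences. By its longest transcript, Snrnp27 had the highest GC content of the 14 members that fell (47.6%). Snrpd2 had the lowest of the 3 that rose (52.3%). The values of both genes are given with their complexes.

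Of the U1 members, the U1-associated factor Prpf39 fell in vehicle, and Snrnp70 and Prpf40b, another U1-associated factor, rose. Prpf39 read 171, 201 and 192 CPM in the first 3 WT libraries (WT M1, WT M2 and WT F3), 104 CPM in WT F4, 104, 113, 125 and 101 CPM in vehicle and 215, 146, 174, 170.0 and 184 CPM in TMB. Vehicle libraries were low, and TMB libraries spanned the range of the first 3 WT libraries. The change in vehicle was -0.60 (SE 0.17, adjusted p = 0.016), -0.77 (SE 0.11, adjusted p = 1.85e-05) without WT F4 and -0.094 (SE 0.070, adjusted p = 0.368) with the GC trend removed. Prpf39 overlaps Fkbp3, and 11.7% of its 50-base windows occur in another gene; the sources used here do not give the strand setting of the counting. Snrnp70 read 295, 380.2 and 324 CPM in the first 3 WT libraries, 533 CPM in WT F4 and 540.2, 423, 581 and 509 CPM in vehicle. Its change was 0.42 (SE 0.15, adjusted p = 0.0399), 0.62 (SE 0.10, adjusted p = 6.60e-05) without WT F4, and 0.010 (SE 0.078, adjusted p = 0.948) with the GC trend removed. Prpf40b read 53.5, 59.2 and 57.3 CPM in the first 3 WT libraries, 92.8 CPM in WT F4 and 82.6 to 88.8 CPM in vehicle. WT F4 was the highest of all 13 libraries for this gene. Its log2 change was 0.37 (SE 0.14, adjusted p = 0.0494), 0.58 (SE 0.072, adjusted p = 7.64e-06) without WT F4, and -0.026 (SE 0.069, adjusted p = 0.823) with the GC trend removed. Snrpa, which binds a stem of U1 RNA, and Snrpc, which steadies its pairing with the intron start, were not called with all libraries (0.18 and 0.20) and were higher without WT F4 (0.28 and 0.39).

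**Figure D3:**
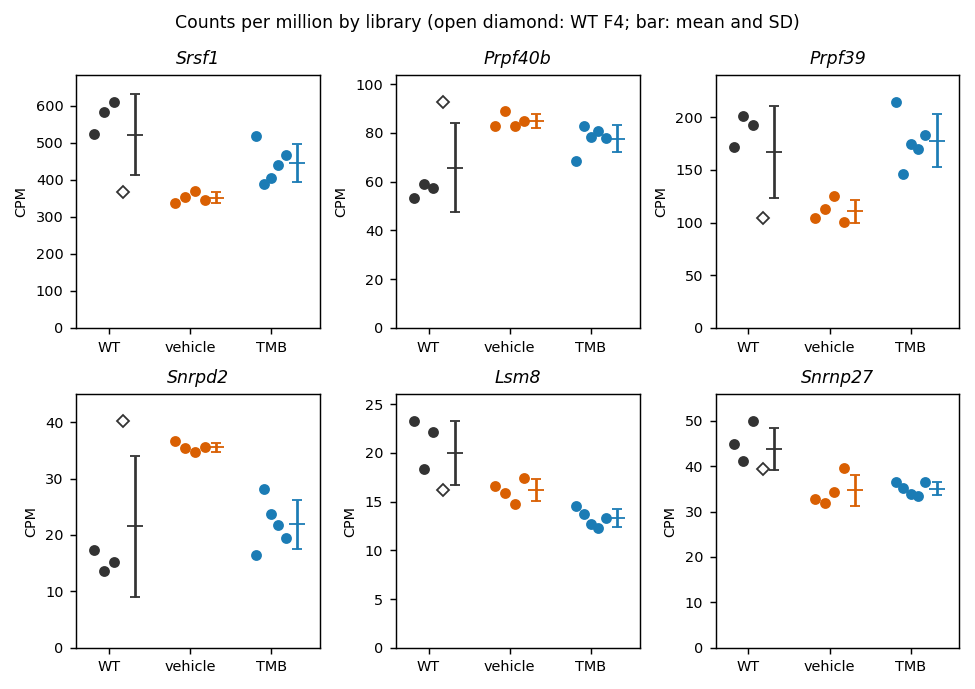
CPM of 6 members in each library (points), with group mean and SD (bars; n = 4 WT, 4 vehicle, 5 TMB); the open diamond is WT F4 and each axis starts at 0. For Srsf1, Prpf40b, Prpf39 and Snrpd2, WT F4 lies with or beyond the vehicle libraries; Lsm8 is lowest in TMB, and Snrnp27 is low in both Rpe65-/- groups.

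Of the 10 SR proteins, 3 fell in vehicle (Srsf1, Srsf3, Srsf10), none rose, and 8 had a log2 change below 0, with a median of -0.18. Of all genes, 18.3% fell and 15.7% rose. With the GC trend removed, 1 of the 10, Srsf1, was lower and none was higher. In that fit 5 had a log2 change above 0, and the median was 0.029. Srsf1, which promotes the choice of nearby intron starts, read 524, 582 and 610.4 CPM in the first 3 WT libraries, 367 CPM in WT F4, 337, 354, 370.2 and 345 CPM in vehicle and 519, 389.6, 405, 439 and 467 CPM in TMB. Only WT F4 overlapped the vehicle range. The change was -0.57 (SE 0.13, adjusted p = 0.00752), -0.70 (SE 0.088, adjusted p = 8.65e-06) without WT F4 and -0.17 (SE 0.058, adjusted p = 0.0446) with the GC trend removed. Srsf10, a repressor of splicing when dephosphorylated, changed by -0.41 (SE 0.12, adjusted p = 0.019), by -0.52 (SE 0.083, adjusted p = 5.98e-05) without WT F4 and by -0.052 (SE 0.053, adjusted p = 0.526) with the GC trend removed. Srsf3, the smallest SR protein, read 255 to 282 CPM in WT and 231 to 245 CPM in vehicle, and these ranges did not overlap; scaled to the nuclear total alone they did, at 248 to 269 CPM and 231 to 253 CPM. Its change of -0.18 (SE 0.061, adjusted p = 0.0341) was the smallest of the 17 calls. It was -0.18 (SE 0.056, adjusted p = 0.0121) without WT F4, and with the GC trend removed the sign turned to 0.16 (SE 0.10, adjusted p = 0.312). Srsf12, neuronally enriched in mammals, was lower without WT F4, at -0.70 (SE 0.13, adjusted p = 0.000341), against -0.50 (SE 0.20, adjusted p = 0.0671) with it. Srsf5 was not called with or without WT F4 (-0.13 and -0.17). Without WT F4, 7 SR genes were lower and 1, Srsf4, was higher, against 27.1% and 28.5% of all genes. The GC content of Srsf4 was 53.0%, the highest of the 10, and 47.3% of its 50-base windows occur in another gene.

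Members of the Sm ring moved apart. Snrpd1 (SmD1) and Snrpe (SmE) fell, and Snrpd2 (SmD2), whose product pairs with SmD1 in the ring, rose. Snrpd1 read 49.4, 45.9, 44.8 and 37.1 CPM in the 4 WT libraries and 30.4, 30.6, 31.7 and 33.2 CPM in vehicle, without overlap, and 38.9, 30.8, 33.8, 38.1 and 38.8 CPM in TMB. Its change was -0.49 (SE 0.10, adjusted p = 0.00481), -0.57 (SE 0.091, adjusted p = 6.65e-05) without WT F4 and -0.22 (SE 0.079, adjusted p = 0.0653) with the GC trend removed. Snrpd2 read 17.3, 13.6 and 15.2 CPM in the first 3 WT libraries, 40.1 CPM in WT F4, 36.6, 35.4, 34.7 and 35.6 CPM in vehicle and 16.5, 28.1, 23.7, 21.7 and 19.5 CPM in TMB. WT F4 was above every vehicle library, and the WT mean was 21.5 ± 12.5 CPM (SD, n = 4) with that library and 15.4 ± 1.83 CPM (SD, n = 3) without it. The change was 0.72 (SE 0.27, adjusted p = 0.0486), 1.22 (SE 0.15, adjusted p = 6.00e-06) without WT F4 and 0.59 (SE 0.21, adjusted p = 0.0592) with the GC trend removed. Snrpe changed by -0.57 (SE 0.18, adjusted p = 0.0256) and by -0.72 (SE 0.15, adjusted p = 0.000607) without WT F4. With the GC trend removed its change was -0.23 (SE 0.13, adjusted p = 0.223). Snrpe shares 20.8% of its 50-base windows with other genes, among them Snrpert, an annotated processed pseudogene that read 0.205 to 1.82 CPM. Snrpb and Snrpn encode near-identical proteins, SmB and its neuronal form SmN, the second from an imprinted locus. Snrpn fell, from 75.2 ± 4.72 (SD, n = 4) CPM in WT to 62.2 ± 6.37 (SD, n = 4) CPM in vehicle, a change of -0.27 (SE 0.085, adjusted p = 0.0253), and of -0.30 (SE 0.081, adjusted p = 0.00485) without WT F4. With the GC trend removed the change of Snrpn in vehicle was -0.10 (SE 0.083, adjusted p = 0.414). Snrpb was not called at 0.52 (SE 0.21, adjusted p = 0.0594) with all libraries and was higher without WT F4, 0.87 (SE 0.11, adjusted p = 1.18e-05). Snrpg was likewise higher without WT F4 (0.42 with it and 0.71 without it).

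No LSm ring gene and no other LSm gene was called in vehicle with all libraries. The smallest adjusted p was 0.0539, for Lsm5, with a change of 0.37. Lsm5 was higher once the GC trend was removed, at 0.85 (SE 0.23, adjusted p = 0.0173); its transcript has 33.9% GC, it read 5.09 to 6.45 CPM in WT, and 20.8% of its 50-base windows occur elsewhere. Without WT F4, 4 of the 8 ring genes were higher (Lsm2, Lsm4, Lsm5, Lsm7) and 2 lower (Lsm3, Lsm8), against 28.5% and 27.1% of all genes. With the GC trend removed and WT F4 kept, Lsm2, Lsm3, Lsm4, Lsm7 and Lsm8 were not called (0.33, -0.26, -0.079, -0.086 and 0.11). Lsm4 read 29.9, 37.0 and 24.0 CPM in the first 3 libraries and 60.6 CPM in WT F4, against 56.4, 41.2, 44.3 and 58.6 CPM in vehicle.

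In the U2 class, Sf3b1, the protein that clasps the branch point, was the only one of 11 members called with all libraries. It read 509, 489 and 532 CPM in the first 3 WT libraries, 342 CPM in WT F4 and 346, 408, 367 and 367 CPM in vehicle. The change was -0.33 (SE 0.12, adjusted p = 0.045), -0.46 (SE 0.082, adjusted p = 0.000187) without WT F4 and -0.0001 (SE 0.058, adjusted p = 0.999) with the GC trend removed. Without WT F4, Sf3a2, Sf3b2, Sf3b4 and Sf3b5 were higher and Snrpa1 and Snrpb2 joined Sf3b1 as lower. These were 4 and 3 of the 11 members, against 28.5% and 27.1% of all genes. Sf3a2, the member with the highest GC content (62.2%), read 22.3, 23.5 and 24.5 CPM in the first 3 WT libraries, 53.4 CPM in WT F4 and 50.05, 41.9, 45.3 and 52.2 CPM in vehicle. The change of Sf3a2 was 0.61 (SE 0.24, adjusted p = 0.0578) and 1.01 (SE 0.14, adjusted p = 2.21e-05) without WT F4. With the GC trend removed it was 0.022 (SE 0.091, adjusted p = 0.892), and 0.091 (SE 0.093, adjusted p = 0.506) without WT F4 as well. Sf3b5, the smallest protein of the complex, read 12.4, 10.9 and 12.3 CPM in the first 3 WT libraries, 33.7 CPM in WT F4 and 25.8, 24.5, 28.1 and 27.2 CPM in vehicle. Its change of 0.61 (SE 0.30, adjusted p = 0.123) became 1.15 (SE 0.18, adjusted p = 4.70e-05) without WT F4, and stood at 1.38 (SE 0.19, adjusted p = 3.80e-05) when the GC trend was removed as well. It was 0.72 (SE 0.32, adjusted p = 0.126) with WT F4 kept and the GC trend removed.

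None of the 6 genes of dominant retinitis pigmentosa was called in any comparison with all libraries. Against WT, vehicle differed by 0.12 for Prpf3, -0.16 for Prpf4, 0.058 for Prpf6, -0.10 for Prpf8, 0.18 for Prpf31 and -0.079 for Snrnp200, each with a standard error of 0.0665 to 0.0922. Prpf8 read 485, 517, 529.7 and 522 CPM in WT, 454, 543, 466 and 449 CPM in vehicle and 471, 475, 483, 519 and 522 CPM in TMB. The groups overlapped in every pair. Snrnp200 read 246, 269, 258 and 270.3 CPM in WT, 236, 264, 248 and 239.6 CPM in vehicle and 229, 246, 238, 255 and 247 CPM in TMB, also with overlap. With the GC trend removed, Prpf8 (-0.24 (SE 0.081, adjusted p = 0.0481)) and Snrnp200 (-0.19 (SE 0.061, adjusted p = 0.0364)) were lower in vehicle, and both remained lower when WT F4 was also left out (-0.28 and -0.21). In that last fit Prpf3 was higher in vehicle (0.27 (SE 0.078, adjusted p = 0.014)). Snrnp200 was there also lower in TMB against WT (-0.18 (SE 0.061, adjusted p = 0.0442)). Prpf31, which binds U4 RNA, was higher in vehicle without WT F4 (0.26 (SE 0.077, adjusted p = 0.00805)). It read 35.5, 35.4, 39.2 and 45.3 CPM in WT, 46.1, 41.5, 45.4 and 43.0 CPM in vehicle and 37.8, 36.6, 39.6, 37.5 and 35.4 CPM in TMB.

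**Figure D4:**
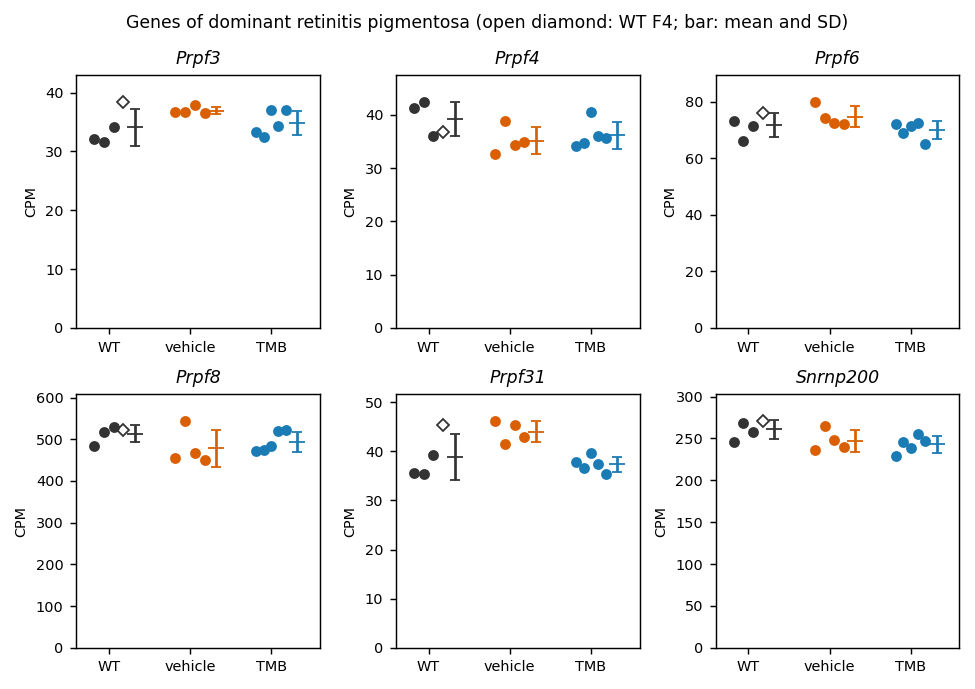
CPM of the mouse counterparts of 6 human genes of dominant retinitis pigmentosa in each library (points), with group mean and SD (bars; n = 4 WT, 4 vehicle, 5 TMB), each axis from 0; the open diamond is WT F4. The 3 groups overlap for Prpf3, Prpf4, Prpf6, Prpf8 and Snrnp200, and for Prpf31 all vehicle libraries lie above all TMB libraries; scaled to the nuclear total alone, vehicle also lies above both other groups for Prpf6 (73.8 to 82.8 CPM, against 64.6 to 73.0 in WT and 64.97 to 73.5 in TMB).

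The tri-snRNP protein Snrnp27 was low in both Rpe65-/- groups. It read 44.8, 41.1, 49.9 and 39.5 CPM in WT, 32.8, 31.9, 34.3 and 39.6 CPM in vehicle and 36.4, 35.1, 33.8, 33.3 and 36.5 CPM in TMB; all TMB libraries lay below all WT libraries, and 1 vehicle library, vehicle M5, lay just above the lowest WT library. The change was -0.34 (SE 0.10, adjusted p = 0.0179) in vehicle and -0.32 (SE 0.091, adjusted p = 0.0379) in TMB. These 2 comparisons share the WT libraries. It was called lower in both also without WT F4 (-0.38 and -0.37) and with the GC trend removed (-0.27 and -0.30). Over the main fit and 25 alternatives it was called lower in 20 for vehicle and in 15 for TMB, and never higher. Snrnp27 and Snrpn were called in both Rpe65-/- groups with all libraries, and no other member was. Prpf18, a factor of the second catalytic step, and Prpf4b, a kinase of the tri-snRNP, fell in vehicle. Prpf18 changed by -0.27 (SE 0.088, adjusted p = 0.03) and by -0.35 without WT F4, Prpf4b by -0.41 (SE 0.13, adjusted p = 0.0263) and by -0.55, and they changed by -0.044 and -0.025 with the GC trend removed. Prpf38a and Prpf38b, chosen after their values were seen, were higher in vehicle with the GC trend removed (0.30 and 0.38). Prpf19, the ubiquitin ligase of the complex named after it, changed by 0.19 (SE 0.090, adjusted p = 0.104) and by 0.29 (SE 0.066, adjusted p = 0.00133) without WT F4. Snrnp40, a U5 protein, read 22.4, 25.2, 13.8 and 29.0 CPM in WT and 29.7 to 30.4 CPM in vehicle, with a change of 0.41 (SE 0.16, adjusted p = 0.0588), and of 0.55 (SE 0.15, adjusted p = 0.00385) without WT F4.

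Members of the minor spliceosome differed in direction. Rnpc3, which binds U12 RNA, has the lowest GC content of all members (33.1%) and fell, as did Snrnp48 (40.8% GC), while Snrnp25 and Snrnp35 (55.2% and 56.1% GC) were not called with all libraries and were higher without WT F4. Rnpc3 read 154, 179 and 179 CPM in the first 3 WT libraries, 87.2 CPM in WT F4, 105, 97.7, 114 and 89.6 CPM in vehicle and 171, 138, 144, 156 and 155 CPM in TMB. Its change in vehicle was -0.56 (SE 0.17, adjusted p = 0.0221), -0.75 (SE 0.088, adjusted p = 5.20e-06) without WT F4 and 0.041 (SE 0.079, adjusted p = 0.754) with the GC trend removed. Rnpc3 overlaps the amylase gene Amy1, and 23.3% of its 50-base windows occur in another gene. Snrnp48 changed by -0.32 (SE 0.12, adjusted p = 0.0491), by -0.41 (SE 0.093, adjusted p = 0.00125) without WT F4 and by 0.059 with the GC trend removed. Snrnp35, at 4.04 to 8.63 CPM in all libraries, changed by 0.59 (SE 0.18, adjusted p = 0.0121) without WT F4. With the GC trend removed its change was 0.036 (SE 0.15, adjusted p = 0.893).

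The core ring genes were also set against the SR and PRPF genes. The 17 core genes (Sm ring, LSm ring, and Lsm10 and Lsm11 of the U7 particle) had a median transcript length of 1586 bases and a median GC content of 47.2%, and the 23 SR and PRPF genes 3527 bases and 44.3%. In vehicle against WT the core genes had a median log2 change of 0.17, with 1 higher and 3 lower, and the SR and PRPF genes one of -0.16, with 1 higher and 7 lower, against 15.7% and 18.3% of all genes. The difference of the medians was 0.32. It was 0.39 without WT F4 and 0.14 with the GC trend removed. By library, the median core level minus the median SR and PRPF level (each gene relative to its 13-library mean) was -0.0031, -0.25 and -0.34 in WT M1, WT M2 and WT F3, 0.18 in WT F4, 0.22, 0.094, 0.12 and 0.28 in the vehicle libraries, and -0.25, 0.017, -0.083, -0.12 and -0.071 in the TMB libraries. All vehicle libraries lay above all TMB libraries and above the WT libraries other than WT F4. With the GC trend removed, the vehicle libraries stood at 0.046 to 0.23, WT at -0.10 to 0.16 and TMB at -0.20 to -0.057, so that vehicle and TMB still did not overlap. In TMB against WT the difference of the medians was 0.060, 0.15 without WT F4, and turned to -0.062 with the GC trend removed, and in TMB against vehicle it was -0.17, and -0.13 with the GC trend removed. These gaps are descriptions of the chosen lists and carry no test.

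**Figure D5:**
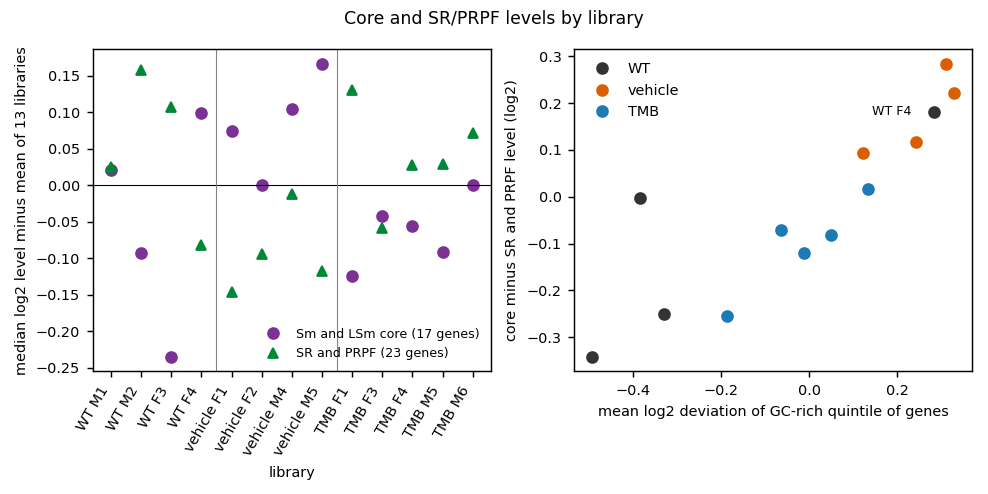
Left, median log2 level of the 17 Sm and LSm core genes (circles) and of the 23 SR and PRPF genes (triangles) in each library, relative to the 13-library mean; right, their difference against the mean log2 deviation of the GC-rich quintile of genes, by group. The difference is 0.094 to 0.28 in vehicle and 0.18 in WT F4, and -0.25 to 0.017 in TMB; the 4 libraries highest in GC-rich genes (vehicle F1, M5 and M4 and WT F4) also have the 4 largest differences.

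In TMB-treated Rpe65-/- retina, 3 members fell against WT (Lsm8, Snrnp27 and Snrpn) and none rose, against 5.02% of all genes that fell and 4.51% that rose; the median change was 0.0061. Without WT F4, 14 were higher and 11 lower, against 19.6% and 18.4% of genes. Leaving out any other single library left 1 to 3 calls, Lsm8 each time. With the GC trend removed, 1 was higher (Prpf39, 0.26 (SE 0.066, adjusted p = 0.0122)) and 3 lower (Lsm8 and Snrnp27 among them), against 6.45% and 9.36%. Lsm8 replaces Lsm1 in the ring that binds U6 RNA in the nucleus. It read 23.2, 18.4, 22.1 and 16.2 CPM in WT, 16.6, 15.9, 14.7 and 17.4 CPM in vehicle and 14.5, 13.7, 12.7, 12.2 and 13.3 CPM in TMB. The TMB libraries lay below every other library. The change was -0.59 (SE 0.12, adjusted p = 0.0046), -0.67 (SE 0.10, adjusted p = 0.000177) without WT F4 and -0.44 (SE 0.10, adjusted p = 0.0072) with the GC trend removed, and the call held in the main fit and all 25 alternatives. In vehicle the change of Lsm8 was -0.31 (SE 0.12, adjusted p = 0.0613), and 0.11 (SE 0.11, adjusted p = 0.515) with the GC trend removed. Between TMB and vehicle it was -0.28 (SE 0.12, adjusted p = 0.257), and -0.55 (SE 0.10, adjusted p = 0.0811) with that trend removed. Snrpn changed by -0.27 (SE 0.080, adjusted p = 0.0493) in TMB, by -0.29 (SE 0.077, adjusted p = 0.007) without WT F4 and by -0.20 (SE 0.079, adjusted p = 0.0905) with the GC trend removed; 26.2% of its 50-base windows occur in another gene, most of them in Gm38393, which overlaps it.

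The promoters of Lsm8 and Snrnp27 are shown because these 2 genes held their calls in most alternatives in TMB. Each sequence runs from 250 bases before to 50 bases after the start (RefSeq, GRCm38.p6), at chr6:18848385-18848684 on the plus strand and chr6:86684442-86684741 on the minus strand, with motif matches in capitals.
Lsm8: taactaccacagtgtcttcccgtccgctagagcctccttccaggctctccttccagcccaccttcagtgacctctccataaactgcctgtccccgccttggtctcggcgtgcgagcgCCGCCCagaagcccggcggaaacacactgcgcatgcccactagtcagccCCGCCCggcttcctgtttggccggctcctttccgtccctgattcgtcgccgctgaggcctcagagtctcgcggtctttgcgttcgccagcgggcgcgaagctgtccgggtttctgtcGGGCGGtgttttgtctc
Snrnp27: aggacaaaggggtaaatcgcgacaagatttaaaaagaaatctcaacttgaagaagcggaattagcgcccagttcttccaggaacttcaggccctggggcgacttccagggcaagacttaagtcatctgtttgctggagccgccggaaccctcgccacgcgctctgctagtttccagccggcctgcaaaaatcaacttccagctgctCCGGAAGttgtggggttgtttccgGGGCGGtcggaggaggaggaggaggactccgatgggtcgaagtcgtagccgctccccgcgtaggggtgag
The motifs searched on both strands were the GC box (GGGCGG), the CCAAT box (CCAAT), the core of ETS factor sites (CCGGAAG), the NRF1 palindrome (GCGCA, any base, GCGC), the YY1 motif and the TATA box (TATAAA). Lsm8 has 3 GC boxes, and Snrnp27 has 1 GC box and 1 ETS core. Of the 54 members in the RefSeq table, 39 (72.2%) have a GC box, against 38.2% of 27025 genes; 21 (38.9%) have an ETS core, against 9.93%; and 13 (24.1%) have the NRF1 palindrome, against 5.19%. A CCAAT box is in 38.9% of members and 41.1% of genes a TATA box in 11.1% and 15.7%, and the YY1 motif in 1.85% and 1.17%. These are matches of letters, given as a description of the genes.

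TMB and vehicle share the deletion and differ in diet. Between them, by edgeR in 1 fit of all libraries, no member and no other gene was called (0% of 16782 genes higher and 0% lower). DESeq2 called 1 member, Prpf39 (DESeq2 called 0.268% of all genes higher and 0.101% lower). In the edgeR fit, 19 of the 65 members had an unadjusted p under 0.05, against 3064 of the 16782 genes. The log2 changes were 0.68 for Prpf39, 0.59 for Rnpc3, 0.39 for Snrnp48 and 0.34 for Srsf1, with -0.70 for Snrpd2, -0.60 for Snrnp35, -0.57 for Sf3a2 and -0.44 for Snrpb. A fit of the 9 Rpe65-/- libraries alone, with their own estimate of the spread, called 10 members higher and 10 lower, against 7.11% and 7.6% of 16339 genes. The fit of 12 libraries without WT F4 called 10 higher and 9 lower, against 8.02% and 8.02% of genes, and 18 members were called by both. In the fit of these 2 groups, Prpf39 was higher in TMB with a log2 change of 0.68 (SE 0.10, adjusted p = 0.0107), Rnpc3 with 0.59 (SE 0.079, adjusted p = 0.0107) and Srsf1 with 0.33 (SE 0.079, adjusted p = 0.0225). Vehicle and TMB did not overlap for any of these 3 genes. Srsf2 (0.33 (SE 0.074, adjusted p = 0.0198)) and Srsf6 (0.25), chosen after their values were seen, were also higher. Snrpd2 was lower with -0.70 (SE 0.12, adjusted p = 0.0139), Snrpb with -0.44 (SE 0.10, adjusted p = 0.0186) and Prpf31 with -0.24 (SE 0.067, adjusted p = 0.0352). For Snrpd2 the vehicle libraries at 34.7 to 36.6 CPM lay above the TMB libraries at 16.5 to 28.1 CPM. Snrnp27 (0.013 (SE 0.078, adjusted p = 0.925)) and Snrpn (0.0033) had changes near 0 in this comparison. Across the 65 members the log2 change correlated with GC content at r = -0.48 and with log2 transcript length at r = 0.49, as a description. No member was called with the GC trend removed, against 0.012% of genes higher and 0% lower. With WT F4 left out as well, 2 were higher (Prpf39 and Srsf2) and 5 lower (Lsm5, Lsm8, Prpf38b, Snrpb and Snrpd2), against 0.74% and 1.36% of 17016 genes.

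Genes that work with the members were counted on lists. Of 50 other spliceosome proteins tested, 10 rose and 7 fell in vehicle against WT and 1 rose and 1 fell in TMB; of all genes, 15.7% rose and 18.3% fell in vehicle and 4.51% and 5.02% in TMB. Txnl4a, the small U5 protein Dim1, fell in both, with a log2 change of -0.45 (adjusted p = 0.00844) in vehicle and -0.34 (adjusted p = 0.0493) in TMB. Txnl4b rose in both, with 0.30 (adjusted p = 0.0378) and 0.41 (adjusted p = 0.0165). Of 14 genes for Sm ring assembly, 1 rose and 4 fell in vehicle and 1 rose and 1 fell in TMB. Prmt5, the methyltransferase that modifies Sm tails, fell in both, with -0.32 (adjusted p = 0.00983) in vehicle and -0.27 (adjusted p = 0.0359) in TMB, and Gemin5, which recognises the RNA, rose in both, with 0.29 (adjusted p = 0.0226) and 0.30 (adjusted p = 0.0392). Of 20 SR kinases and SR-like cofactors, 1 rose and 7 fell in vehicle and 2 rose and 1 fell in TMB. Srpk2, a kinase that phosphorylates SR tails, fell in both groups, with -0.54 (adjusted p = 0.00129) and -0.36 (adjusted p = 0.0191). Clk2, a kinase of the same list, rose in both, with 0.30 (adjusted p = 0.0184) and 0.28 (adjusted p = 0.04145). Of 22 hnRNP genes, which often counter SR proteins, 1 rose and 9 fell in vehicle and 2 fell in TMB, among them Hnrnph2 with -0.47 (adjusted p = 0.0104) and -0.50 (adjusted p = 0.0111). Hnrnpf also fell in both, with -0.19 (adjusted p = 0.0447) and -0.35 (adjusted p = 0.00336). Of 21 neuronal and photoreceptor splicing regulators, 2 rose and 8 fell in vehicle and 2 fell in TMB. Elavl2 and Rbfox1 fell in both groups, Elavl2 with -0.66 (adjusted p = 0.00301) and -0.42 (adjusted p = 0.0425) and Rbfox1 with -0.45 (adjusted p = 0.00525) and -0.35 (adjusted p = 0.0251). The median changes of the 5 lists in vehicle were -0.033, -0.032, -0.24, -0.17 and -0.26, in this order, against 0.017 for all genes. The genes named here that fell in both groups had GC contents of 38.5% (Elavl2) to 52.6% (Prmt5). Those that rose had 50.4% (Txnl4b) to 55.4% (Clk2). Over all genes the change in vehicle correlated with GC content at r = 0.46. The lists were not examined with the GC trend removed, and the part of GC content in their changes was not tested. No gene of these lists was called between TMB and vehicle with all libraries. Without WT F4, 28.5% of all genes were higher and 27.1% lower in vehicle against WT. Of the 50 spliceosome proteins, 19 were higher and 13 lower, and of the assembly genes 3 and 6. The counts were 4 and 10 for the SR kinases and cofactors and 4 and 13 for the hnRNP genes. They were 8 and 11 for the neuronal and photoreceptor regulators. In that fit Txnl4a, Prmt5, Gemin5, Srpk2, Hnrnph2, Elavl2 and Rbfox1 kept their directions and calls in both Rpe65-/- groups. The values of Txnl4b, Clk2 and Hnrnpf without WT F4 are not given here.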

How the data were processed

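The authors deposited raw HTSeq read counts per gene, 1 table of nuclear and 1 of mitochondrial genes; per the labels and the study's methods, reads were trimmed with Trimmomatic v0.40 and aligned with STAR 2.7.11b to GRCm38/mm10. No source used here gives the strand setting of the counting. The 4 WT columns stand in each table more than once with equal values and were used once. The deposited columns of the authors' own fold changes and p-values were not used. The depth of 13512155 to 16449989 nuclear counts per library limits the precision for members at a few CPM.

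Counts were tested with edgeR 4.0.16 in R 4.3.3 (quasi-likelihood, TMM, filterByExpr by group, Benjamini-Hochberg over all genes kept), in 1 fit of the 13 libraries. CPM values of members were scaled to the TMM effective library sizes, and those of Rpe65, sex-linked and marker genes to the nuclear counts of each library. As alternatives, DESeq2 1.42.0 and limma-trend (limma 3.58.1) were run, with other size factors and count filters, fits of 2 groups, a replicate block, a cubic trend on GC content or on length removed per library, and each library left out; 2 further settings were chosen after seeing the data. GC content and length come from the longest GENCODE M21 transcript, and 50-base windows from the transcripts of all genes. Named members were the 6 genes of dominant retinitis pigmentosa, the 10 largest calls per comparison, up to 4 members per class with the smallest adjusted p, Snrpb and Snrpn, and the highest and lowest per class by level; of the partner lists up to 3 genes each were named. Other members named were chosen after their values were seen. Counts and medians cover all 65 members; 1 member is not reported here by name. The members and lists were chosen with earlier results of these data known. The p-values measure the spread between mice, 1 library each.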

Additional observations from a re-analysis of the deposited data

Results flagged for a closer look

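For 6 members a single WT library lay far outside the range of the other WT libraries, and in each case it was WT F4. Prpf40b, the U1-associated factor, read 92.8 CPM in WT F4 and 53.5 to 59.2 CPM in the other 3 WT libraries. Of the branch-point complex, Sf3a2 read 53.4 CPM against 22.3 to 24.5, Sf3b2 read 344 CPM against 231 to 240.8, Sf3b4 read 53.5 CPM against 33.2 to 34.9, and Sf3b5 read 33.7 CPM against 10.9 to 12.4. Snrpd2, of the Sm ring, read 40.1 CPM against 13.6 to 17.3. These are 6 of 141 groups of libraries examined with Dixon's 95% critical value, which by its definition chance exceeds in about 1 in 20 groups. In the same library the GC-rich quintile of genes was 0.28 above its mean and mitochondrial reads were 2.84% of the total; the part of either in these values was not tested.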

How the results depend on the processing

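Counts of members called moved with the settings. In vehicle against WT the 17 became 9 with the GC trend removed, 5 with that and a replicate block, 11 with no filter on low counts, 4 in a fit of these 2 groups and 46 without both WT F4 and vehicle F2, and ranged from 3 to 45 with 1 library left out, the highest without WT F4. Of 16782 genes in the main fit, 2629 were higher and 3068 lower. These became 1302 and 1938 of 16711 with the GC trend removed, and 925 and 1399 with the block added. With no filter they were 2290 and 2623 of 29700, and in the fit of 2 groups 1226 and 1635 of 16175. They were 4878 and 4643 of 17039 without both libraries, 1178 and 1671 of 16998 without WT F3, and 4871 and 4637 of 17092 without WT F4. In TMB against WT the 3 became 14 with the GC trend removed and WT F4 left out, 1 with no filter, 1 in a fit of the 2 groups, 26 without both libraries, and 1 to 25 with 1 library left out. Here 757 of 16782 genes were higher and 843 lower in the main fit. These became 1403 and 1904 of 17016 with the GC trend removed and WT F4 left out, and 620 and 738 of 29700 with no filter. The fit of 2 groups gave 498 and 555 of 16281. They were 3424 and 3241 of 17039 without both libraries and 3349 and 3141 of 17092 without WT F4. Between TMB and vehicle the 0 became 1 with DESeq2, 7 with the GC trend removed and WT F4 left out, 20 in a fit of the 2 groups, 22 without both libraries, and 0 to 19 with 1 library left out. With DESeq2, 45 of 16782 genes were higher and 17 lower. The counts were 126 and 231 of 17016 with the GC trend removed and WT F4 left out, and 1161 and 1241 of 16339 with 2 groups. They were 1810 and 1626 of 17039 without both libraries and 1371 and 1370 of 17092 without WT F4. The difference of 0.32 between core and SR and PRPF medians in vehicle against WT became 0.14 with the GC trend removed and 0.11 with the block added. With the replicate number as a block, 4 members were called in vehicle against WT, 1 in TMB against WT and 0 between TMB and vehicle. Of 16782 genes, that fit called 1073 higher and 1151 lower in vehicle against WT. It called 303 and 264 in TMB against WT, and 0 between TMB and vehicle. The replicate numbers do not pair the mice, since deviations of same-numbered libraries correlated at -0.16, 0.25 and 0.043 (vehicle and WT) and at 0.12, -0.17 and 0.23 (TMB and WT).

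With the GC trend removed, the sign of the log2 change differed from that with all libraries in 21 of the 65 members in vehicle against WT, 15 in TMB against WT and 13 between TMB and vehicle, most of them not called in either fit. In vehicle against WT, 8 members changed sign with a call before or after. The log2 change of Prpf40b became -0.026, and -0.025 with the block; that of Rnpc3 0.041, 0.048 with the block and 0.062 without WT F4; that of Snrnp48 0.059, 0.040 and 0.094; that of Srsf3 0.16, 0.15 and 0.32; and that of Prpf38b 0.38, 0.41 and 0.56. Prpf38a became 0.30, and 0.36 without WT F4, where Srsf5 was 0.37 and Srsf7 0.20. Between TMB and vehicle Prpf38b became -0.24 without WT F4. The cause of these moves was not tested. Of all values of single members under the alternatives, 1346 kept their side of the threshold in vehicle against WT, 162 lost the call, 95 gained one and 18 turned; in TMB against WT the corresponding counts were 1529, 29 and 63, with none turned, and between TMB and vehicle 1552 held, 68 gained a call and 1 turned.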
